A study of Homo sapiens with 6 samples.

Results

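The 32 genes described here encode the centromere and kinetochore of human cells. They were chosen as genes of known complexes: 13 of the CENP network, 12 of the outer kinetochore, 4 of the spindle checkpoint and 3 of CENP-A loading. They are 32 of the 33367 genes summed from the deposited transcript tables. All 32 passed the filter on low counts, which left 14075 genes to test.

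The study used K562, an established human erythroleukaemia line, in 6 cultures with 1 library each. Every culture carried a doxycycline-inducible short hairpin RNA (shRNA) and was kept in puromycin at 2 µg/ml. A non-targeting hairpin (NT) was carried by 1 clone. Hairpins against CDAN1, a gene mutated in congenital dyserythropoietic anaemia, were carried by 2 clones, c1 and c2. The sample titles do not say whether c1 and c2 carry the same hairpin sequence. Each clone gave an induced library (doxycycline at 1 µg/ml, day 4) and an uninduced library (no doxycycline, day 4). The groups were therefore the knockdown (induced c1 and c2), the uninduced c1 and c2, and NT in either state. No culture was repeated. In fits without a clone term, the spread behind a p-value is that between single cultures. In fits with a clone term, as used to compare clones, it is the spread left within clones, chiefly their unlike doxycycline responses. Neither measures the spread between repeats of a culture. Each clone is 1 line. NT and a CDAN1 hairpin never shared a clone, so effects of clone and hairpin cannot be told apart between them.

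The kinetochore joins chromosomes to spindle microtubules. Its inner layer, the CENP network, sits on nucleosomes that hold the histone variant CENP-A. The outer layer is built of the NDC80, MIS12 and KNL1 complexes and binds microtubules, and checkpoint proteins on KNL1 hold back anaphase until every chromosome is attached. HJURP and the Mis18 proteins load new CENP-A after mitosis. Many of these genes are transcribed mainly in G2 and M phase, so their level in a bulk culture can follow the share of dividing cells. In such bulk samples, fewer cells in a phase and less RNA per cell cannot be told apart.

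The libraries held between 28318555 and 32352246 estimated reads. Levels are given as CPM, counts scaled to the library total. CDAN1 stood at 62.5 CPM in uninduced NT, 70.2 in induced NT, 37.0 in uninduced c1, 17.0 in induced c1, 55.4 in uninduced c2 and 29.8 in induced c2. Both knockdown libraries were thus below the 4 controls. All 8 erythroid markers of K562 passed the filter, with a summed level of 6840 to 10200 CPM. Of 5 markers of other blood cells, 2 passed it, with a sum of 0.565 to 1.92 CPM. PTPRC, also on that list, had no transcript among those quantified. Of 6 megakaryocyte markers 5 passed, with a sum of 195 to 360 CPM. Of 6 markers of non-blood cells 5 passed, with a sum of 420 to 512 CPM.

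On the scale of TPM, which corrects for transcript length as CPM does not, the 32 genes spanned means of 3.01 to 154. BUB3, a checkpoint protein that also works outside mitosis, was highest at 154 TPM (145 to 168 over the 6 libraries). ZWINT, which binds KNL1, followed at 131 TPM (124 to 143), below BUB3 in range. The checkpoint kinase BUB1 came next at 88.7 TPM, with a range of 76.5 to 101 that overlapped that of CENPW (73.9 to 85.1), a histone-fold subunit of the CENP network. CENPH, MAD2L1, CENPN, PMF1, NDC80 and BUB1B followed at means of 57.5 to 74.8 TPM, and neighbours in this order overlapped. CENPC, which contacts CENP-A nucleosomes directly, had 14.9 TPM, and CENPE, a kinesin motor of the outer kinetochore, 14.4. CENPI at 8.64 TPM (7.82 to 9.59) and CENPP at 3.01 (2.82 to 3.23) were the lowest, and their ranges did not meet each other. Within the CENP network the means thus ran from CENPP to CENPW, and within the CENP-A loading genes from HJURP at 32.7 to OIP5 at 35.4 and MIS18A at 51.1.

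**Figure D1:**
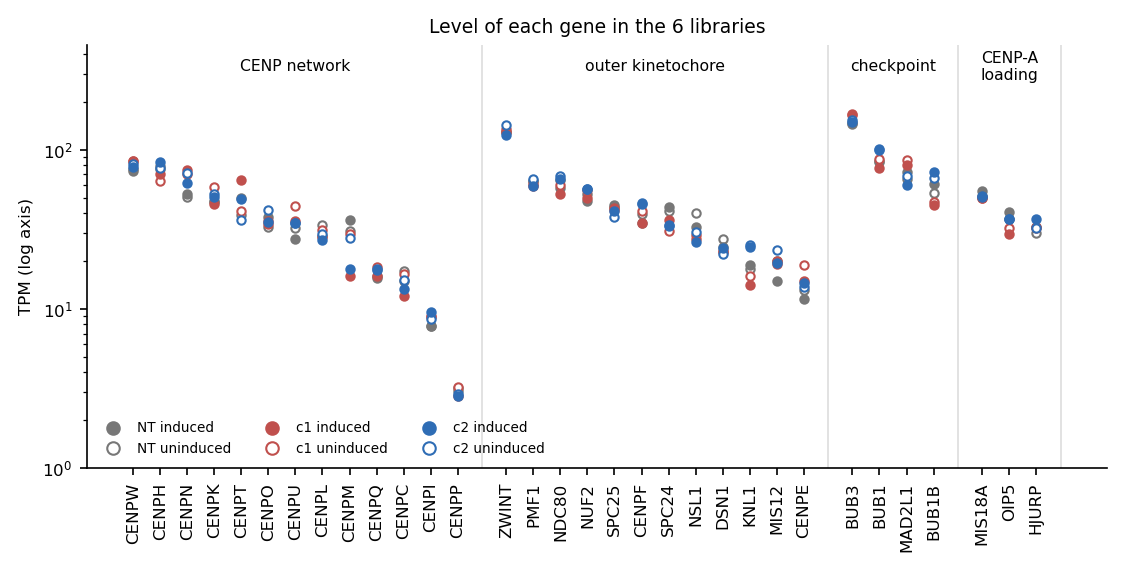
TPM of the 32 genes in each library on a log axis, by role and in falling order of the mean. Filled points are induced and open points uninduced libraries. BUB3 and ZWINT are highest at means of 154 and 131 TPM, CENPP is lowest at 3.01, and CENPM is a gene whose 2 filled CDAN1 shRNA points lie apart from its other points.

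Doxycycline induction left most of the 32 levels close to their uninduced values in each clone. A clone's response is given as log2 CPM, induced minus uninduced. The median response of the members was −0.073 in NT, −0.084 in c1 and 0.002 in c2, against −0.002, −0.014 and −0.001 for all genes tested. A change past 1.25-fold was seen in 1 of 32 members in NT (background 20.4% of all genes tested), 4 of 32 in c1 (25.5%) and 2 of 32 in c2 (18.9%). Among the 8185 genes at or above the lowest member mean, the shares were 3.93%, 9.8% and 4.01%. The summed CPM of the members went from 2550 to 2460 in NT, from 2580 to 2430 in c1 and from 2540 to 2570 in c2. All 3 pairs moved in 1 direction for 16 of 32 members, 5 up and 11 down (background 37.8% of genes).

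**Figure D2:**
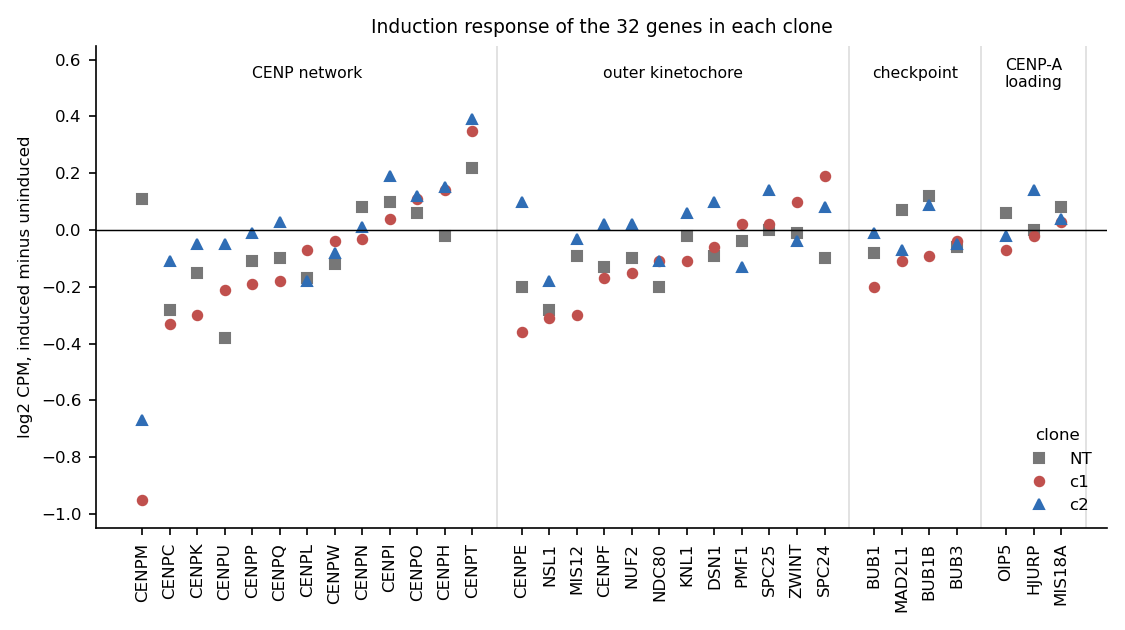
Induction response of each gene in each clone, as log2 CPM of the induced minus the uninduced library (1 library against 1), by role. CENPM lies at −0.95 in c1 and −0.67 in c2 but at 0.11 in NT, while CENPT is above 0 in all 3 clones.

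CENPM was the member with the largest knockdown difference. It encodes a small subunit of the CENP network that resembles a GTPase without its activity, and it holds the CENP-H and CENP-I subunits in the network. Its level was 19.5 CPM in uninduced NT, 21.0 in induced NT, 18.0 in uninduced c1, 9.26 in induced c1, 16.2 in uninduced c2 and 10.1 in induced c2. Both knockdown libraries were lower than every control, and the uninduced CDAN1 shRNA clones lay below both NT libraries by far less. Induction took CENPM in c1 to 51.4% of its uninduced level (95% interval 44.3 to 59.6, which covers counting error only). The c2 pair gave 62.6% (54.0 to 72.4) and the NT pair 107.8% (95.5 to 121.7). Mean CENPM was 9.69 ± 0.608 CPM (SD) over the knockdown libraries (n = 2) and 18.7 ± 2.08 CPM over the controls (n = 4).

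Knockdown against all controls is the comparison that the series design names. CENPM had a log2 difference of −0.95 ± 0.16 (SE) in it, with an adjusted p of 1 by edgeR's quasi-likelihood test. That test called 0 of 32 members and 0 of 14075 genes (background 0%), with 1 member and 322 genes at an unadjusted p under 0.05. DESeq2 called CENPM (adjusted p = 0.000353) and 14 genes in all. With the clone as a replicate block, edgeR called 0 members (background 0.0426%) and gave CENPM −0.82 ± 0.12 (adjusted p = 0.104), whereas DESeq2 called it under the block (adjusted p = 0.00549). The clone term takes up the NT level in these blocked fits, so NT adds only to the estimate of spread. Their difference is that of induced from uninduced c1 and c2, the same estimate as within those clones below. The groups did not overlap for 5 of 32 members (CENPM, CENPC, CENPL and NSL1 lower, CENPI higher), against 9.56% of all genes. Apart from CENPM, the smallest p-values were those of NSL1 at −0.29 ± 0.12 and CENPC at −0.25 ± 0.11, both with an adjusted p of 1 by edgeR.

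Within the CDAN1 shRNA clones, CENPM fell by 0.82 ± 0.12 on the log2 scale between uninduced and induced libraries when edgeR took the clone as a replicate block (adjusted p = 0.017). It was the member called there, 1 of 32, where 1.00% of all genes were called (141 genes). Without the block, edgeR called 0 members and 0 genes (background 0%), with 2 members and 207 genes at an unadjusted p under 0.05, and DESeq2 called 0 members. Under the block, DESeq2 did not call CENPM in this comparison (adjusted p = 0.25), nor did edgeR once average transcript length was an offset (−0.75, adjusted p = 0.263). The call therefore depends on the block, the tool and the length correction. The blocked fit kept 1 residual degree of freedom here, which reflects how the c1 response differed from that of c2.

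The difference between the response of the CDAN1 shRNA clones and that of NT was −0.93 ± 0.28 for CENPM (adjusted p = 1, edgeR), or −0.93 ± 0.21 with the replicate block (adjusted p = 0.32). No member was called in this comparison (0 of 32, background 0%; 1 member and 79 genes at an unadjusted p under 0.05; 0 members by DESeq2). With the block, 0 members were called against a background of 0.135%. The next members by p were SPC24 at 0.24 ± 0.19 and CENPU at 0.25 ± 0.29. The lower response of CENPM in the clones than in NT was thus not called by edgeR over all genes.

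**Figure D3:**
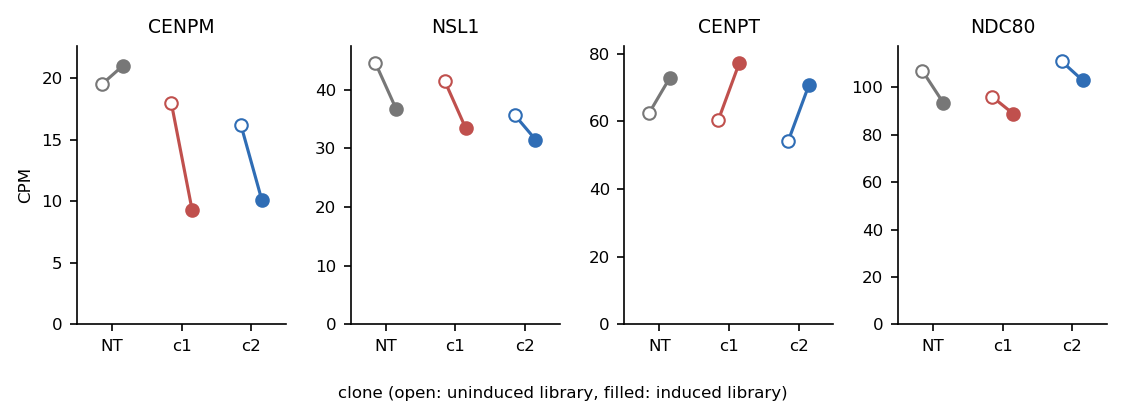
CPM of CENPM, NSL1, CENPT and NDC80 in the uninduced (open) and induced (filled) library of each clone, with axes from 0. CENPM goes down in c1 and c2 and from 19.5 to 21.0 in NT, NSL1 is lower in all 3 induced libraries, CENPT is higher in all 3, and NDC80 shows the small differences typical of most members.

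The lower CENPM level lay mainly in 1 transcript. CENPM-201, the main coding transcript, held 377.8 estimated reads in uninduced NT, 404.5 in induced NT, 388.0 in uninduced c1, 165.5 in induced c1, 360.1 in uninduced c2 and 185.1 in induced c2. Its share of the CENPM reads was 72.9% and 72.1% in the uninduced and induced NT libraries, 76.1% and 59.1% in those of c1, and 76.3% and 60.7% in those of c2. The induced libraries of both CDAN1 shRNA clones therefore had the smallest shares of this transcript. CENPM-206, another coding transcript, stood at 1.06 CPM in uninduced c1 and 1.21 in induced c1, and at 1.30 and 1.13 in those of c2. CENPM-205 and CENPM-203 traded places in uninduced c1, where CENPM-205 held 1.37 CPM and CENPM-203 was listed at 0. Reads shared by overlapping transcripts are divided by estimation, so these smaller parts are uncertain.

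**Figure D4:**
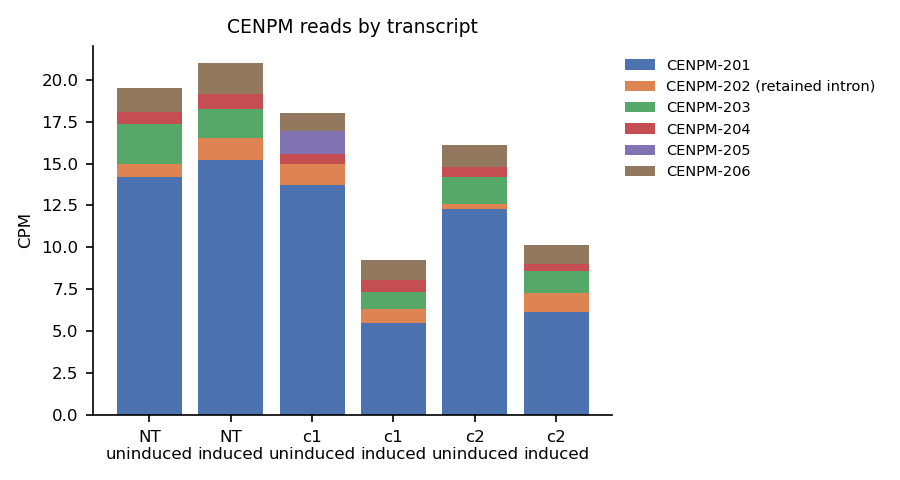
CPM of the 6 CENPM transcripts with reads, stacked by library. The bar of CENPM-201 goes from 13.7 to 5.47 CPM in c1, from 12.3 to 6.14 in c2 and from 14.2 to 15.2 in NT.

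The 3′ untranslated region of CENPM holds a short word that an earlier look at these libraries had picked out from the c2 response. The words ACTCCAT and CTCCATA, read on the transcript strand, overlap by 6 bases and occur together in CENPM as ACTCCATA. They were found in 4 of 32 members, CENPM, NSL1, CENPO and CENPP, against 1811 of 12795 tested genes (14.2%) with a coding transcript. The sites are shown because CENPM is the one member with the joined word. Capitals mark the word, the sequences run 5′ to 3′ on the transcript, and coordinates are those of GRCh38.
CENPM (chr22:41938995-41939020, minus strand, base 45 of the 3′ untranslated region): ttcgtgctgACTCCATAaacattctc
NSL1 (chr1:212737862-212737886, minus strand, base 531): gactttgttACTCCATgttcagcta
CENPO (chr2:24820741-24820765, plus strand, base 1432): cccccgtggACTCCATcctgctggc
CENPP (chr9:92619270-92619294, plus strand, base 6130): taagttattCTCCATAaatctgtct

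The other 3 word-holding members did not share the CENPM pattern. The NSL1 response was −0.31 for c1, −0.18 for c2 and −0.28 for NT, so NT resembled the CDAN1 shRNA clones. CENPO stood at 0.11, 0.12 and 0.06, and CENPP at −0.19, −0.01 and −0.11. The 4 CENPM transcripts with reads and with the word stood, summed, at 47.4% of the uninduced level in c1, 56.2% in c2 and 103.9% in NT. The 2 that hold it nowhere in their length (CENPM-204 and the non-coding CENPM-202) stood at 86.2%, 168.8% and 148.3%, from 27.3 to 60.2 reads per library. Among 1155 word-holding genes at or above the lowest member mean, the median response was −0.095 in c1, −0.028 in c2 and 0.007 in NT. The 6854 genes without a word had −0.004, −0.002 and 0.003. The c2 values enter the choice of the words, so none of these is a test.

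Across all 3 clones, CENPT had the smallest p among the members. CENPT is a histone-fold protein that reaches from the CENP network to the NDC80 complex. Its level was 62.3 CPM in uninduced NT, 72.8 in induced NT, 60.5 in uninduced c1, 77.3 in induced c1, 54.1 in uninduced c2 and 70.8 in induced c2. Every induced library was above every uninduced one. The difference of induced from uninduced over the 3 clones was 0.32 ± 0.09 on the log2 scale (adjusted p = 1, edgeR), or 0.32 ± 0.06 with the replicate block (adjusted p = 0.108, edgeR, and 0.0168 by DESeq2 with the block). No member was called by edgeR without the block (0 of 32, background 0%; 1 member and 217 genes at an unadjusted p under 0.05; 0 members by DESeq2) or with it (background 0.128%). NSL1 at −0.26 and CENPC at −0.24 followed, with adjusted p of 0.198 and 0.234 under edgeR's replicate block.

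Most CENPT reads were assigned to transcripts that keep an intron. Such transcripts took 81.6% to 90.6% of the CENPT reads, chiefly CENPT-218 (25.8 to 33.4 CPM) and CENPT-233 (17.5 to 23.7 CPM). Protein-coding transcripts took 6.3% to 16.0%. From the uninduced to the induced library this part went from 7.95 to 7.78 CPM in NT, from 3.79 to 7.84 in c1 and from 4.0 to 11.3 in c2. Shared reads are divided by estimation, so these small parts are uncertain. The retained-intron part stood at 52.2 and 62.2 CPM in uninduced and induced NT, at 54.8 and 63.8 in c1, and at 49.0 and 57.7 in c2, so it was higher in each induced library. CENPT overlaps NUTF2 and THAP11 in the annotation, and the strand of the libraries is not given, so reads in the overlap cannot be told apart. NUTF2 had responses of 0.10 in NT, 0.16 in c1 and 0.09 in c2, and THAP11 0.05, 0.03 and 0.11, all smaller than those of CENPT.

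The other CENP network genes showed no call for induction or knockdown. CENPC stood at 48.3 CPM in uninduced NT, 39.7 in induced NT, 44.7 in uninduced c1, 35.5 in induced c1, 40.2 in uninduced c2 and 37.2 in induced c2. Each induced CENPC library was below its uninduced partner, NT included. CENPH and CENPI, partners of CENPM in 1 subcomplex, had responses of 0.14 and 0.04 in c1, 0.15 and 0.19 in c2, and −0.02 and 0.10 in NT. CENPK, the remaining partner, had −0.30 in c1, −0.05 in c2 and −0.15 in NT. None of these 3 was below 0 in both CDAN1 shRNA clones and above 0 in NT, as CENPM was. CENPN and CENPL, which read the CENP-A nucleosome, ranged from −0.18 to 0.08 over the 3 clones. CENPO, CENPP, CENPQ and CENPU form a further subcomplex. Of these CENPU varied most, at 45.6 and 35.0 CPM in the uninduced and induced NT libraries, 58.4 and 50.7 in those of c1, and 46.1 and 44.4 in those of c2. CENPW, the partner of CENPT, stood between 29.2 and 35.3 CPM in all libraries, with responses of −0.12 (NT), −0.04 (c1) and −0.08 (c2). It did not show the higher induced levels of CENPT.

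The outer kinetochore genes had median responses of −0.095 in NT, −0.108 in c1 and 0.019 in c2. Their summed level went from 1090 to 1020 CPM in NT, from 1090 to 1010 in c1 and stayed at 1080 in c2. NDC80, whose product grips microtubules, stood at 107, 93.5, 96.1, 89.0, 111 and 103 CPM in uninduced and induced NT, c1 and c2. Its partner NUF2 stood between 63.4 and 72.3 CPM and SPC25 between 36.8 and 45.3 CPM. SPC24, the remaining subunit of that complex, had responses of −0.10 in NT, 0.19 in c1 and 0.08 in c2. Of the MIS12 complex, which links the layers, NSL1 was lower in all 3 induced libraries (44.6 to 36.7 CPM in NT, 41.4 to 33.4 in c1, 35.7 to 31.5 in c2). MIS12 itself had −0.30 in c1, −0.03 in c2 and −0.09 in NT, while DSN1 and PMF1 stayed between −0.13 and 0.10. KNL1, the platform for the checkpoint, and ZWINT lay between −0.11 and 0.10 in every clone. CENPE had −0.36 in c1, 0.10 in c2 and −0.20 in NT, and CENPF, a large protein of the fibrous corona, −0.17, 0.02 and −0.13. No pair of outer kinetochore subunits was called for induction or knockdown.

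The checkpoint genes had responses of −0.20 to 0.12 over the 3 clones. BUB1 stood at 247 and 234 CPM in the NT libraries, 254 and 221 in those of c1, and 275 and 273 in those of c2 (uninduced before induced). BUB3, its binding partner, had −0.06 in NT, −0.04 in c1 and −0.05 in c2, and MAD2L1, which inhibits the anaphase-promoting complex, 0.07, −0.11 and −0.07. BUB1B, the BUBR1 kinase-like protein of the same inhibitor, had 0.12, −0.09 and 0.09. Of the CENP-A loading genes, HJURP, the CENP-A chaperone, lay between 65.9 and 72.6 CPM in all libraries. MIS18A lay between 57.6 and 65.9 CPM and OIP5, the Mis18 beta subunit, between 25.6 and 33.9 CPM. CENPA itself, the histone variant they load, had responses of −0.14 in NT, −0.03 in c1 and −0.07 in c2.

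Genes that work beside the kinetochore gave few calls for induction or knockdown. Without the block, edgeR called no gene of the neighbouring lists in any of these comparisons. The lists were other centromere and loading genes (9), passenger complex and shugoshin (7), corona (9), Ska and plus-end genes (8), cohesin (12), condensin (8), G2 and M phase genes (20) and S phase genes (20). AURKB, the kinase of the passenger complex, stood between 60.8 and 66.2 CPM. With the replicate block in the CDAN1 shRNA clones, 2 of 17 regulators of cell cycle transcription fell, where 1.00% of all genes were called. These were RBL1, down by 0.51 ± 0.09 (adjusted p = 0.0283, edgeR), and RB1, down by 0.45 ± 0.08 (adjusted p = 0.0294), both pocket proteins that restrain E2F. ASF1A, a histone chaperone bound by the CDAN1 product, fell by 0.46 ± 0.08 (adjusted p = 0.0305), and CDAN1 by 1.01 ± 0.09 (adjusted p = 0.00285). When the NT response was taken off under the block, 0 of the 17 regulators were called by edgeR. Of the 3 genes CDAN1, ASF1A and ASF1B, 1 was called there, CDAN1, where 0.135% of all genes were called. ASF1A was also lower in induced than in uninduced NT, with a response of −0.19. Its blocked difference from the NT response was −0.267 and was not called. The G2 and M phase list, which shares the timing of most members, had median responses of −0.040 in NT, −0.106 in c1 and 0.037 in c2, close to the members' own.

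More members were called between clones than between doxycycline states. In edgeR fits of clone and doxycycline state, 8 of 32 members were called between c1 and NT (5 higher, 3 lower in c1), where 27.8% of all genes were called. Between c2 and NT 3 of 32 were called (background 21.1%), and between c2 and c1 7 of 32 (background 26.8%). The members' shares were thus near or below the background in each comparison. These fits take both libraries of a clone as its replicates, so their p-values do not measure the spread between independent lines. The CENP network had 2 of 13 members called between c1 and NT and 0 in the other comparisons, and the checkpoint genes had 3 of 4 called between c1 and NT and 4 of 4 between c2 and c1.

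Lower in c1 than in NT were KNL1, BUB1B and OIP5. KNL1 stood at 135 and 134 CPM in the uninduced and induced NT libraries, 112 and 104 in those of c1, and 152 and 159 in those of c2. It was lowest in c1 and highest in c2, and the 3 clones did not overlap. Its difference was −0.32 ± 0.06 for c1 against NT (adjusted p = 0.00789, edgeR) and 0.53 ± 0.06 for c2 against c1 (adjusted p = 0.000793). BUB1B stood at 144 and 157 CPM in NT, 122 and 115 in c1, and 165 and 176 in c2, the same order of clones. It differed by −0.34 ± 0.07 for c1 against NT (adjusted p = 0.00838) and by 0.52 ± 0.07 for c2 against c1 (adjusted p = 0.00123). OIP5 was at 32.4 and 33.9 CPM in NT, 27.0 and 25.6 in c1, and 29.7 and 29.4 in c2. It was −0.34 ± 0.08 in c1 against NT (adjusted p = 0.0214, edgeR), and DESeq2 did not call it (adjusted p = 0.0639).

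Higher in c1 than in NT were CENPE, CENPU, MAD2L1, CENPN and BUB3. CENPE stood at 96.2 and 83.7 CPM in NT, 140 and 109 in c1, and 92.7 and 99.5 in c2, a difference of 0.46 ± 0.10 for c1 against NT (adjusted p = 0.0139, edgeR). CENPU differed by 0.44 ± 0.09 (adjusted p = 0.0121). MAD2L1 stood at 93.3 and 97.8 CPM in NT, 119 and 110 in c1, and 93.6 and 89.3 in c2, and differed by 0.26 ± 0.06 (adjusted p = 0.0233). Both c1 libraries were the highest of the 6 for these 3 genes. BUB3 differed by 0.20 ± 0.05 (adjusted p = 0.0214) and CENPN by 0.23 ± 0.07 (adjusted p = 0.0452, or 0.116 by DESeq2). MAD2L1, BUB3 and CENPE were also lower in c2 than in c1, by log2 differences of −0.32, −0.21 and −0.36. In c2 against c1, NDC80 and BUB1 were higher, at 0.21 ± 0.06 each (adjusted p = 0.0355 and 0.0356, edgeR).

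In c2 against NT, SPC24 was lower and CENPF and KNL1 were higher. SPC24 stood at 63.1 and 58.9 CPM in NT and at 46.9 and 49.6 in c2, a difference of −0.34 ± 0.09 (adjusted p = 0.0313, edgeR). CENPF differed by 0.22 ± 0.06 (adjusted p = 0.0376) and KNL1 by 0.21 ± 0.06 (adjusted p = 0.0433, or 0.0602 by DESeq2). These 3 calls rest on few libraries: edgeR called 0 of 32 members without uninduced c2 (1187 of all genes called, against 2964 with every library) and 0 without induced c2 (1022). Leaving out uninduced or induced NT left 1 call each (1829 and 1910 genes), and leaving out uninduced or induced c1 gave 6 and 7 (3502 and 3489 genes). For c1 against NT, with 3918 genes called from every library, 3 members were called without induced NT (2520 genes), 4 without uninduced c1 (2348), 5 without uninduced NT (2319) and 5 without induced c2 (3092). For c2 against c1, with 3766 genes called from every library, 2 members were called without uninduced c2 (1565 genes) and 3 without induced c2 (1664). In each of these fits the count over all genes lay on the same side of its value from every library as that of the members. The order of the fits by members called was not always their order by all genes called. CENPM had −0.65 in c1 and −0.68 in c2 against NT in these fits, values that average the induced with the uninduced libraries, and it was not called. Megakaryocyte markers also differed between the clones, with medians of −2.24 in c1 against NT and 2.08 in c2 against NT over 5 genes, and their part in these differences was not tested.

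Several of the differences between clones lay beside like differences of the same chromosome. KNL1, BUB1B and OIP5 all lie on chromosome 15, and no other member does. The 331 other tested genes of chromosome 15 with a mean of at least 5 CPM had a median of −0.46 in c1 against NT, with 77% called lower, and 0.52 in c2 against c1, with 79.2% called higher. In c2 against NT that median was 0.04. KNL1 and BUB1B were therefore close to their chromosome in c2 against c1 (0.53 and 0.52), while OIP5 at 0.17 was below it. CDAN1 lies on the same chromosome and had −1.41 ± 0.27 in c1 against NT (adjusted p = 0.00793, edgeR). That value averages the induced with the uninduced libraries, so it takes in the knockdown of CDAN1 by its hairpin.

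Chromosome 4 holds CENPE, CENPU, MAD2L1 and CENPC. Tested genes within 5 Mb, again with a mean of at least 5 CPM, had medians of 0.26 around CENPE, 0.35 around CENPU and 0.22 around MAD2L1 in c1 against NT, beside 0.46, 0.44 and 0.26 for the members themselves. CENPC stood at −0.14, with a neighbour median of 0.25 from 9 genes, and so did not share the direction of its neighbours. CENPN, on chromosome 16, had 0.23 with a neighbour median of 0.20, where the whole chromosome had 0.00. For SPC24, on chromosome 19, the neighbour median was −0.10 in c2 against NT, beside −0.34 for the gene. For BUB3 and CENPF the neighbour medians were 0.04 in c1 against NT and −0.02 in c2 against NT, far from their own values. Over the 32 members the difference of a gene and the median of its neighbours correlated at r = 0.64 in c1 against NT, 0.54 in c2 against NT and 0.76 in c2 against c1, or 0.59, 0.55 and 0.48 without chromosome 15. The points share their libraries, and neighbouring members share some of the same neighbours. The number of chromosome copies in each clone was not measured here.

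**Figure D5:**
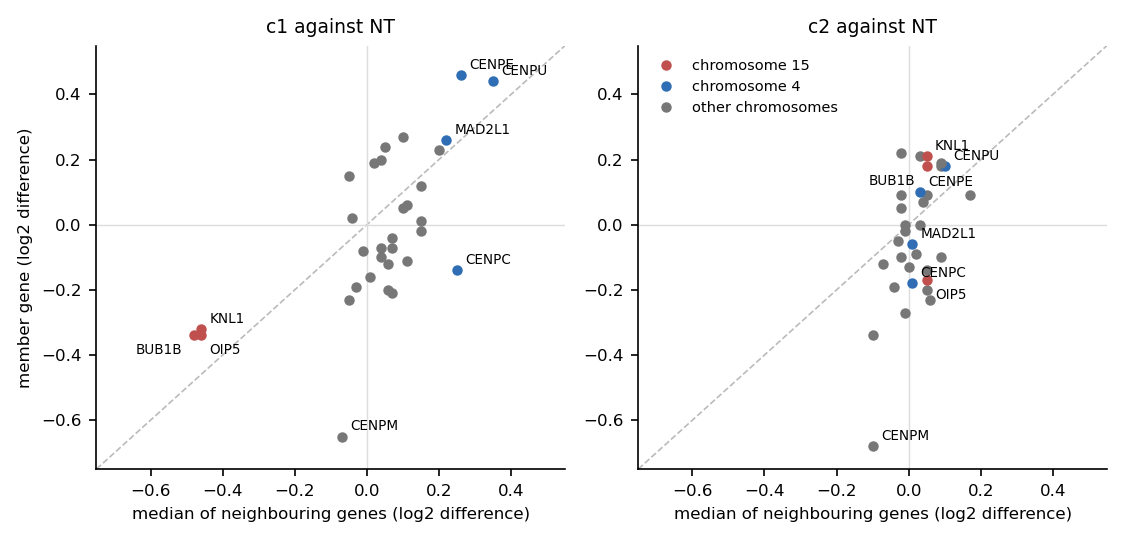
Difference of each member between clones (vertical axis, log2) against the median difference of tested genes within 5 Mb and with a mean of at least 5 CPM (horizontal axis, log2), for c1 and c2 against NT. The dashed line marks equal values. KNL1, BUB1B and OIP5 sit together at the lower left for c1 and at 0.21, 0.18 and −0.17 for c2, where their neighbours' medians are 0.05, and CENPM lies far below its neighbours in both panels.

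The members' promoters were searched for letters known from G2 and M phase genes. The cell cycle genes homology region (CHR), an element bound by MuvB complexes, was searched as TTTGAA or TTCGAA, and the CCAAT box as CCAAT, on both strands, in the RefSeq windows (GRCh38.p14) from 250 bases before to 50 after each gene start. Windows were found for 26 of 32 members, all but CENPH, CENPL, CENPM, KNL1, BUB3 and MIS18A. A CHR match was present in 14 of 26 (53.8%), against 19.5% of 27305 genes, and a CCAAT match in 17 of 26 (65.4%), against 39.7%. CENPT, CENPE, CENPU, SPC24 and NSL1 had no CHR match. The 100 bases around the start are shown for 2 members that were lower in c1 (BUB1B, OIP5), 1 that was higher (MAD2L1) and 1 not called between c1 and NT (NDC80). All 4 hold the element, and capitals mark it.
BUB1B (chr15:40161019-40161118, plus strand): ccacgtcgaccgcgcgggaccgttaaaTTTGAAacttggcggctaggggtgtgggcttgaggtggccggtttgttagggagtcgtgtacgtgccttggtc
OIP5 (chr15:41332542-41332641, minus strand): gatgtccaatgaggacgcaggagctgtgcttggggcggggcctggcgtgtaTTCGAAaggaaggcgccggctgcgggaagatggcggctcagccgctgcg
MAD2L1 (chr4:120066799-120066898, minus strand): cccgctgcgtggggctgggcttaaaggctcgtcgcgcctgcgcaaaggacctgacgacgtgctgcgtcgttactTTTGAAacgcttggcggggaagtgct
NDC80 (chr18:2571507-2571606, plus strand): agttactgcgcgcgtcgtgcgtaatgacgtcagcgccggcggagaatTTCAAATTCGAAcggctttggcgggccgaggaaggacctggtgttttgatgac
The match lies 23 bases before the start in BUB1B and within the first 30 bases after it in OIP5 and MAD2L1, and NDC80 holds 2 adjacent matches, at −3 and 3 from its start. A match is a description of these letters and not of a bound site.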

How the data were processed

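RNA sequencing of 6 K562 libraries was quantified by the authors with Salmon 1.5.2 on GRCh37 (hg19), per the submitters' processing notes. Per the file headers, each deposited table holds an expected count of reads and a TPM value per transcript; effective lengths were used only as an offset. Not given in the sources used here were trimming, the transcript set and the library strand. Sample titles set the groups and call the second CDAN1 clone c2 (its file names carry C3). Of 167268 transcripts, 151039 (90.3%) matched GENCODE 29 (GRCh38) by identifier and were summed to 33367 genes. The other 16229, with 6.23% to 6.5% of a library's reads, were left out.

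Summed counts were rounded and tested with edgeR 4.0.16 in R 4.3.3 (quasi-likelihood test, two-sided, TMM scaling, filterByExpr with a smallest group of 2, Benjamini-Hochberg adjustment over 14075 genes, threshold 0.05). CPM are scaled by TMM, and log2 responses use a prior count of 2. The SE beside an edgeR difference is derived from the test: the absolute log2 difference divided by the square root of its F statistic. DESeq2 1.42.0 was an alternative. Others were RLE scaling, no filter, a length offset, the replicate block and leaving out each library. Each clone gave both of its libraries, so the clone pairs them: deviations from the 3 induced and the 3 uninduced means correlated over 8185 genes (r = 0.667 for NT, 0.750 for c1, 0.828 for c2). Blocked fits keep 2 residual degrees of freedom, or 1 where the NT response is a term.

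Folds with tests are given for members called in a comparison, at most 10, and otherwise for the 3 of smallest p. CENPA, AURKB, CDAN1 and called genes are named from the 14 other lists. The members and lists were chosen with earlier results of these data known. A promoter or 3′ untranslated region enters by RefSeq or GENCODE 29 sequence.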

Additional observations from a re-analysis of the deposited data

How the results depend on the processing

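For knockdown against all controls, 1 member (CENPM) was called by DESeq2 (14 of all genes) and 1 by DESeq2 with the replicate block (115), against 0 by edgeR. For induced against uninduced CDAN1 shRNA clones the replicate block gave 1 (CENPM, 141 of all genes). The block on the 4 CDAN1 shRNA libraries alone, added after seeing the data, gave 2 (CENPM, and CENPT at 0.38, adjusted p = 0.0406, edgeR; 153 of all genes). For all 3 clones, DESeq2 with the block gave 1 (CENPT, 145 of all genes). The block changed no other call of a member in these comparisons, and leaving out a c1 or c2 library under the block left no residual degrees of freedom for the second of them. Counts over all genes follow in parentheses. Against 8 calls (3918), c1 against NT gave 4 with a length offset (2369), 5 without the doxycycline term (2909) and 3 to 6 with 1 library left out (2319 to 3245). Against 3 (2964), c2 against NT gave 6 without a filter (3347), 1 without the doxycycline term (2122) and 0 to 7 with 1 library left out (1022 to 3502). Against 7 (3766), c2 against c1 gave 3 with a length offset (2312), 4 without the doxycycline term (2851) and 2 to 8 with 1 library left out (1565 to 3962). NSL1 (0.04) and CENPC (0.06) changed sign in knockdown against all controls when the block was joined by a doxycycline term. With that term the fit gives the response of the CDAN1 shRNA clones minus that of NT, and the NT response was −0.28 for both genes. The cause of the other changes was not tested. The response against NT could not be fitted without an NT library. Counted as TPM, the share of CENPM-201 was 51.7% in induced c1 and 54.0% in induced c2, and 64.1% to 70.9% in the other libraries. Members of low count, such as CENPM and CENPI, carry wide counting intervals.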
